A study of Mus musculus with 6 samples.

Results

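Wnt2, Wnt2b, Wnt5a, Wnt5b, Wnt9a, Wnt9b and Wnt11 encode Wnt ligands known from the dermis and other mesenchyme or from polarity signalling. Every probe set of the array annotated to 1 of these gene symbols was taken, which gave 13 of the 45037 probe sets tested, for 7 of 18193 genes. The rule names genes and has no threshold on a measured value. Wnt5a had 4 probe sets, Wnt5b, Wnt9a and Wnt9b had 2 each, and Wnt11, Wnt2 and Wnt2b had 1 each.

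RNA of mouse embryonic back skin at E15.5 was compared on Affymetrix MOE430 2.0 arrays between 3 samples of genotype Fzd6 +/- (control) and 3 of genotype Fzd6 -/- (knockout). All embryos were of a mixed C57BL6/129 strain and none of the groups was wild type, since the controls carry 1 mutant copy of the receptor gene. The samples are labelled as biological replicates, with no word on whether each is a single embryo, so p-values measure the spread between these samples. Values are RMA expression values on the log2 scale, where a step of 1 is a doubling, and differences are knockout minus control.

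Wnt ligands are secreted proteins that carry a lipid and bind Frizzled receptors at the surface of the same or a nearby cell. Ligands such as Wnt2, Wnt2b, Wnt9a and Wnt9b are best known for stabilising beta-catenin. Wnt5a, Wnt5b and Wnt11 are best known for signalling without beta-catenin, through Ror and Ryk co-receptors, planar polarity proteins, small GTPases and calcium. In skin, Wnt5a is a ligand of the mesenchyme beneath the epidermis, and Frizzled 6 is a receptor needed to align hair follicles.

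The arrays had medians of 5.99 to 6.03. Genes of the labelled tissue read high: Krt5 and Krt10 of the epidermis lay at 12.2 to 14.3 and Col1a1 of fibroblasts at 9.94 to 12.1. Of the 3 Fzd6 probe sets, 2 were lower in every knockout array than in every control (−0.44 and −0.67) and the remaining set differed by −0.0097. Over all probe sets 11.6% did not overlap, and the limma adjusted p of those 2 was 0.909 and 0.864. The brightest Fzd6 set still read 8.71 to 9.07 in the knockouts. Each group held 1 array with low Y-linked genes, control 2 and knockout 3. Of the arrays, 2 stood apart in tissue markers. Knockout 1 had the lowest dermal fibroblast and endothelial lists and the highest suprabasal epidermal list, and control 1 was next lowest in the first 2. Control 1 also differed in Adipoq, which encodes the adipocyte hormone adiponectin and read 8.64 there against 3.32 to 3.48 in the other 5 arrays.

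None of the 13 probe sets passed the limma adjusted p of 0.05, and over the whole array 0 of 45037 passed (0% of all). The adjusted p of the members lay between 0.909 and 0.997. At an unadjusted limma p under 0.05 there was 1 member probe set, that of Wnt11, where 5.21% of all probe sets reached that level. All 3 knockout arrays lay on 1 side of all 3 controls in 1 member probe set, again that of Wnt11, where 11.6% of all probe sets did not overlap. The knockout mean was lower in 10 and higher in 3 of the 13, with a median difference of −0.075 against 0.0018 over all probe sets. With each array centred on its median the split was 9 lower and 4 higher, and without knockout 1 it was 8 and 5. It was 7 lower and 6 higher both with array weights and without replicate 1 of both groups. With the replicate number as a block, 4 member probe sets reached an unadjusted p under 0.05, where 12% of all did.

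**Figure D1:**
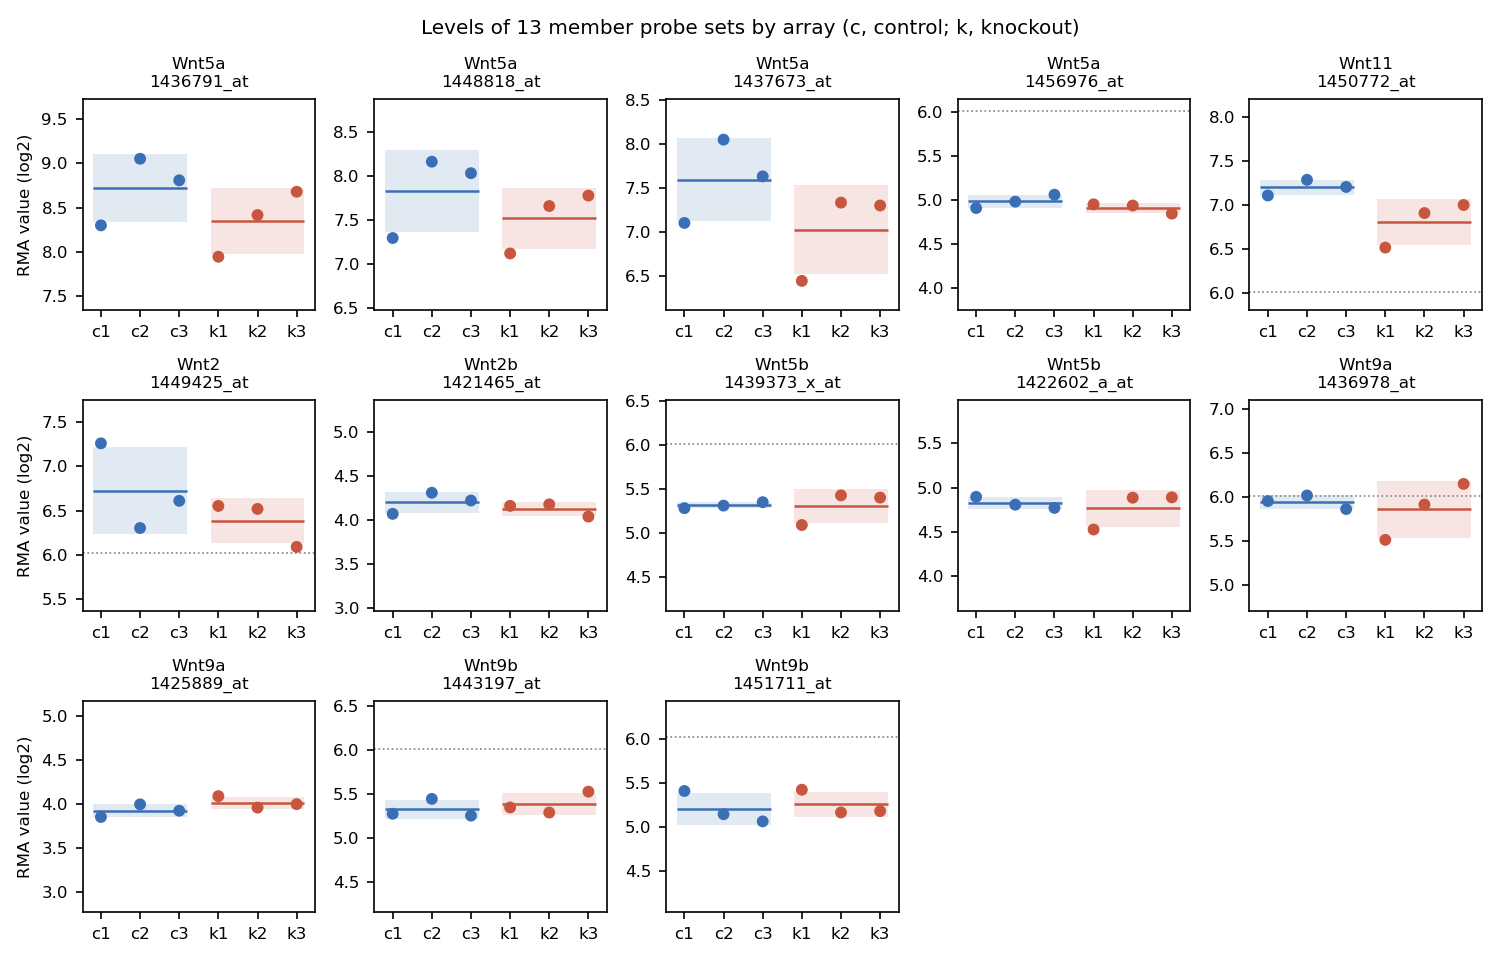
RMA values (log2) of the 13 probe sets in each array, with group mean (line) and SD (shaded, n = 3); c is control, k is knockout and the dotted line is the median of all probe sets at 6.02. Each panel spans the same log2 range, and the 3 bright Wnt5a sets, Wnt11 and Wnt2 vary most between arrays, with knockout 1 lowest for Wnt5a and Wnt11.

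Wnt5a was read above the array median by 3 of its 4 probe sets, with lower knockout means in all 4 and overlapping groups. In the brightest, 1436791_at, controls 1 to 3 read 8.30, 9.05 and 8.81 and knockouts 1 to 3 read 7.94, 8.41 and 8.68. Control 1 fell below 2 of the knockouts, so the groups overlapped. Control skin averaged 8.72 ± 0.39 and knockout skin 8.35 ± 0.37 (SD, n = 3), which is −0.37 with a 95% interval of −0.93 to 0.18 (limma adjusted p = 0.914). Later intervals are of the same kind. As a ratio of knockout to control this is 0.771, with an interval of 0.524 to 1.13.

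The second set, 1448818_at, read 7.29, 8.16 and 8.03 in the controls and 7.12, 7.66 and 7.78 in the knockouts, a difference of −0.31 (−0.91 to 0.29). The third, 1437673_at, read 7.11, 8.05 and 7.63 in the controls and 6.45, 7.34 and 7.30 in the knockouts, a difference of −0.57 (−1.27 to 0.14, limma adjusted p = 0.909). In all 3 sets control 2 was highest, knockout 1 lowest and control 1 the lowest control. These sets followed each other over the 6 arrays, with Pearson r of 0.945 to 0.974, as sets that read the same transcript can. The fourth, 1456976_at, lay between 4.85 and 5.06 on all arrays, below the array median, and differed by −0.072 (−0.26 to 0.12).

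The spread of Wnt5a within a genotype was about as large as the step between genotypes. The pooled SD within groups was 0.380, 0.413 and 0.489 in the bright sets, above that of 93.0%, 94.8% and 97.2% of the probe sets brighter than the median, whose median SD was 0.155. Controls alone spanned a 1.69-fold to 1.93-fold range. Within replicate numbers 1, 2 and 3 the knockout lay below its control each time, by −0.36, −0.64 and −0.13 in the brightest set and by −0.66, −0.71 and −0.33 in 1437673_at. With the number as a block the unadjusted limma p of the 3 sets was 0.00922, 0.00968 and 0.000544, and the smallest adjusted p was 0.335. Their intervals in that fit were −0.62 to −0.13, −0.52 to −0.10 and −0.79 to −0.34, all below 0. There 12% of all probe sets had an unadjusted p under 0.05.

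The Wnt5a difference moved with single arrays. In the brightest set it was −0.59 without control 1 (limma adjusted p = 0.804), −0.21 without control 2, −0.54 without knockout 3 and −0.17 without knockout 1. Without both replicate 1 arrays, controls 2 and 3 lay above knockouts 2 and 3 in all 4 Wnt5a probe sets, and the brightest differed by −0.38 (−0.70 to −0.070, limma adjusted p = 0.624). In that reduced set of 4 arrays 39.1% of all probe sets did not overlap, against 9 of the 13 members, of which 6 were lower and 3 higher.

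Wnt5b, the close relative of Wnt5a, was read below the array median by both of its probe sets. Set 1439373_x_at, whose suffix marks probes that can also match other sequences, read 5.29, 5.32 and 5.35 in the controls and 5.09, 5.43 and 5.41 in the knockouts. Set 1422602_a_at lay at 4.77 to 4.89 in the controls and at 4.52 to 4.89 in the knockouts. Knockout 1 was the lowest array in both, and the other knockouts lay among or just above the controls. The differences were −0.0077 (−0.26 to 0.24) and −0.057 (−0.33 to 0.22), and without knockout 1 they were 0.10 and 0.064. The sign of the first also turned, to 0.0070, when arrays were centred.

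Wnt11 is a ligand of convergent extension and polarity signalling in vertebrate embryos. Its groups did not overlap, which held for 1 of the 13 member probe sets and for 11.6% of all probe sets. Its probe set 1450772_at read 7.11, 7.29 and 7.21 in controls 1 to 3 and 6.52, 6.91 and 7.002 in knockouts 1 to 3. The lowest control lay above the highest knockout by a narrow margin, and knockout 1 was lowest. Knockout skin, at 6.81 ± 0.26, was below control skin, at 7.20 ± 0.089, by −0.39 (−0.71 to −0.076, limma adjusted p = 0.909, unadjusted 0.0215). The ratio of knockout to control was 0.763, with an interval of 0.613 to 0.949.

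Within replicate numbers 1 to 3 the Wnt11 differences were −0.59, −0.38 and −0.21. Leaving out single arrays kept the sign, between −0.49 without knockout 3 and −0.25 without knockout 1. The unadjusted limma p was 0.0683 without control 2 and 0.0547 without control 3, and between 0.0125 and 0.0383 without any of the other 4 arrays. Over the alternatives the adjusted p of Wnt11 ran from 0.29 to 1. Its pooled SD of 0.192 was above that of 64.4% of the brighter probe sets, so it varied less between arrays than Wnt5a did.

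The stretch before an annotated Wnt11 start is shown because its values did not overlap, as in 11.6% of all probe sets. Wnt11 is also itself part of the Wnt pathway. RefSeq's promoter table (GRCm38.p6) held windows for Wnt2, Wnt2b, Wnt5b, Wnt9a, Wnt9b and Wnt11, 6 of the 7 members. The window covers the 250 bases before the upstream of 2 listed Wnt11 starts, chr7:98834862-98835111, plus strand, written 5′ to 3′. Capitals mark a TCF/LEF core (CTTTGAT or CTTTGAA, either strand, here ATCAAAG) that begins 51 bases before the start and a TATA box (TATAAA, either strand) that begins 29 bases before it.
Wnt11: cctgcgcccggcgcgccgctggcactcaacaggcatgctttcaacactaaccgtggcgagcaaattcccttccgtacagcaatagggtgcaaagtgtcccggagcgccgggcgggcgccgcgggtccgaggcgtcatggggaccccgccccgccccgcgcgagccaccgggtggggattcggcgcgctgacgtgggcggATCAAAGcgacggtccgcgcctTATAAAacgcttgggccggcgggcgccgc

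Both motifs were searched after the window had been read. Among 32851 windows of the same length, 7.48% held the TCF/LEF core and 12.4% the TATA box. TCF and LEF are the DNA-binding partners of beta-catenin. The other window of Wnt11, before its downstream start, held neither, and of the other members' windows only 1 of the 3 of Wnt5b held the core. GC boxes (GGGCGG, either strand), which 32.7% of all windows held, occurred 4 times in the Wnt11 window shown and 5 times in that of Wnt9a. These matches are a description of the letters, and the arrays measured no binding.

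Wnt2, a ligand of the beta-catenin branch known from lung mesenchyme and blood vessels, was the member of that branch read above the array median. Its set 1449425_at read 7.26, 6.30 and 6.61 in controls 1 to 3 and 6.55, 6.52 and 6.09 in knockouts 1 to 3. Control 1 stood above all other arrays and knockout 3 lay lowest, with the rest intermixed. Controls averaged 6.72 ± 0.49 and knockouts 6.39 ± 0.26, or −0.34 (−0.91 to 0.23, limma adjusted p = 0.918). Without control 1 it was −0.070 (limma adjusted p = 0.931), and without knockout 3 it was −0.19. Without control 2, the lowest control, it was −0.55. Within replicate numbers 1 to 3 the Wnt2 differences were −0.71, 0.22 and −0.52, so the pairs did not share a sign. Control 1 is the array with Adipoq at 8.64. The 5 measured adipocyte genes averaged 1.04 above their mean over the arrays in control 1 and lay between −0.35 and −0.09 elsewhere. Most of that mean came from Adipoq. Fabp4 and Pparg were also highest in control 1, Lpl was not, and Cebpa was lowest there. The part of fat tissue in the Wnt2 value was not tested.

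The other ligands of the beta-catenin branch read at or below the array median. Wnt2b lay at 4.07 to 4.31 in the controls and 4.04 to 4.18 in the knockouts, a difference of −0.075 (−0.29 to 0.14). Wnt9a had its brighter set, 1436978_at, at 5.96, 6.02 and 5.87 in the controls and 5.52, 5.92 and 6.15 in the knockouts, a difference of −0.086 (−0.45 to 0.28). The knockouts enclosed the controls there, with knockout 1 lowest and knockout 3 highest, and without knockout 1 the difference was 0.086. The dimmer Wnt9a set lay at 3.85 to 4.09 on all arrays and differed by 0.091 (−0.099 to 0.28), and the 2 sets did not follow each other (r = −0.479).

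Wnt9b, an epithelial and ectodermal ligand of kidney and face development, was read at 5.26 to 5.45 in the controls and 5.29 to 5.53 in the knockouts by 1443197_at. Its other set, 1451711_at, lay at 5.06 to 5.40 and 5.16 to 5.42. The differences were 0.063 (−0.17 to 0.29) and 0.050 (−0.23 to 0.33), and the sets did not follow each other over the arrays (r = −0.134). In the gene table Wnt9a lies next to Wnt3a and Wnt9b next to Wnt3. Wnt3a differed by 0.00069 (−0.26 to 0.27) and Wnt3 by −0.032 (−0.25 to 0.18). For the 8 member probe sets below the median, low signal and the shrinking effect of RMA on dim sets limit what a small difference says.

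**Figure D2:**
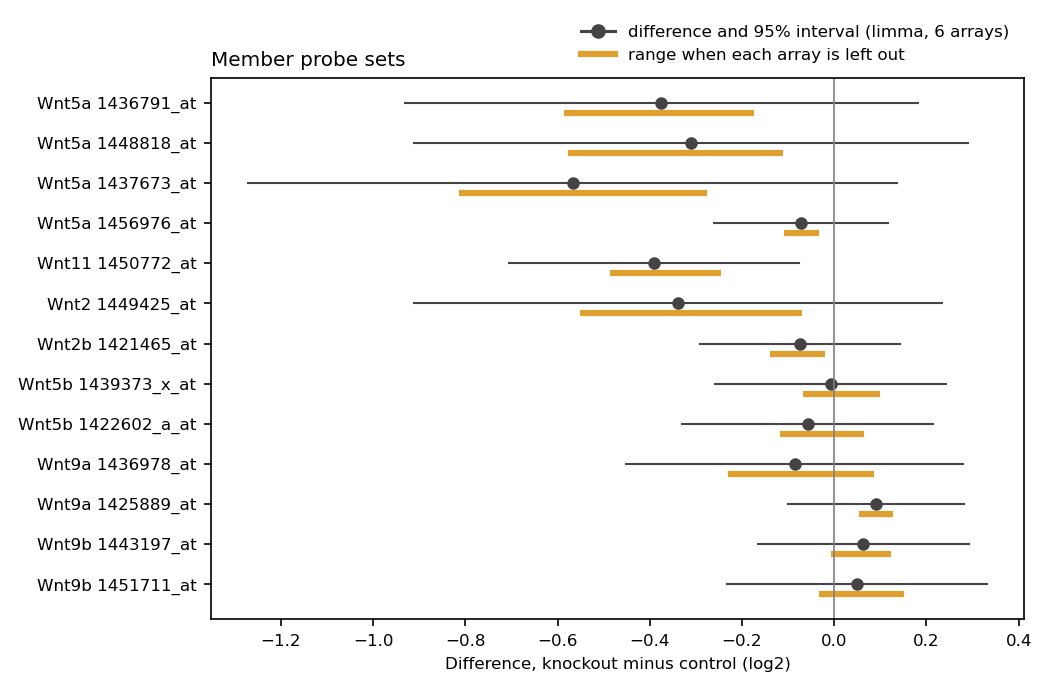
Difference between knockout and control (log2) for each of the 13 probe sets, with its 95% confidence interval (thin line) and the range when each array is left out in turn (thick line). The intervals are from limma over 6 arrays without the replicate block. The interval of Wnt11 (−0.71 to −0.076) lies below 0, and those of the other 12 sets include 0.

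Levels of different Wnt genes were not ranked, since probe sets differ in how strongly they bind. Across the arrays, Wnt5a and Wnt11 took similar courses (Pearson r = 0.874 between their brightest sets, 6 arrays), and Wnt2 did not follow either (r = −0.439 with Wnt5a and 0.0367 with Wnt11). The points share the genotype contrast and the makeup of each sample, so these are descriptions.

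Bulk skin cannot tell fewer cells of a type from less RNA per cell. The 14 measured dermal fibroblast genes had a mean level of 11.5 to 11.9 in the controls and 11.2 to 11.9 in the knockouts, and the 12 endothelial genes 7.58 to 8.40 and 7.12 to 8.42. Relative to their mean over the arrays, fibroblast genes stood at −0.22, 0.17 and 0.12 in controls 1 to 3 and at −0.44, 0.22 and 0.14 in knockouts 1 to 3. Endothelial genes stood at −0.46, 0.35 and 0.29 and at −0.92, 0.37 and 0.38. Both lists were thus low in control 1 and knockout 1, the arrays in which Wnt5a was low within each genotype. The suprabasal epidermal list had the opposite high point, at 0.65 in knockout 1, and the basal epidermal list was lowest in control 3 at −0.40.

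Of 27 relations between Wnt2, Wnt5a or Wnt11 and 9 marker lists, 0 passed after Benjamini-Hochberg adjustment (exact permutation, smallest adjusted p = 0.113), and 3 had an unadjusted exact p under 0.05. Wnt5a followed endothelial genes with Pearson r = 0.843 (exact permutation p = 0.0236, adjusted 0.319) and Spearman rho = 0.543 (exact permutation p = 0.297). Wnt5a followed fibroblast genes with r = 0.814 (exact permutation p = 0.0431, adjusted 0.356) and rho = 0.6 (exact permutation p = 0.242). Without control 1 and knockout 1 these r fell to −0.303 and −0.50, so both relations rest on those arrays. No adjusted exact p of a rho was below 0.45.

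Wnt11 ran against the suprabasal epidermal list, with r = −0.976 (exact permutation p = 0.00417, adjusted 0.113) and rho = −0.943 (exact permutation p = 0.0167). Without control 2 and knockout 1 the r was −0.830. That list was itself higher in the knockout in 12 of its 13 genes, of which 7 (53.8%) had an unadjusted limma p under 0.05 against 5.07% of all genes, so genotype is shared by both sides of the relation. Its groups did not overlap in 8 genes (61.5%, against 11.3% of all genes). The leukocyte list had 5 genes higher and 4 lower, with 4 of 9 (44.4%) higher at that unadjusted p. Those were Cma1, Tpsb2, Cpa3 and Laptm5. Csf1r (−0.14), Cd68 (−0.13), Mrc1 (−0.15) and Ptprc (−0.0056) had lower knockout means. As deviations from the group means, the r of Wnt11 was −0.950 with suprabasal genes (exact permutation p = 0.0833), 0.952 with endothelial genes (exact permutation p = 0.0278), 0.937 with fibroblast genes and 0.931 with dermal condensate genes. The smallest adjusted exact p of these was 0.321, and permutation within groups gives no exact p under 0.0278. Wnt11 followed several lists about as closely in that form. Without that centring its r was 0.685 with endothelial, 0.669 with fibroblast and 0.565 with condensate genes (rho 0.143, 0.257 and 0.257). Without control 1 and knockout 1 these r turned to −0.544, −0.493 and −0.578, so they rest on those arrays. The deviations were not recomputed without them. The part of these tissue lists in the Wnt11 and Wnt5a values was not tested. Only the fibroblast list was used as a covariate, and its relations to both genes rest on control 1 and knockout 1. The suprabasal and endothelial lists were not used in that way. With the fibroblast list as a covariate the genotype difference was −0.36 for Wnt11 (−0.54 to −0.17, limma adjusted p = 0.29), −0.31 for the brightest Wnt5a set (limma adjusted p = 0.432) and −0.38 for Wnt2 (limma adjusted p = 0.517). In that fit 10.6% of all probe sets had an unadjusted p under 0.05, against 3 member sets.

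**Figure D3:**
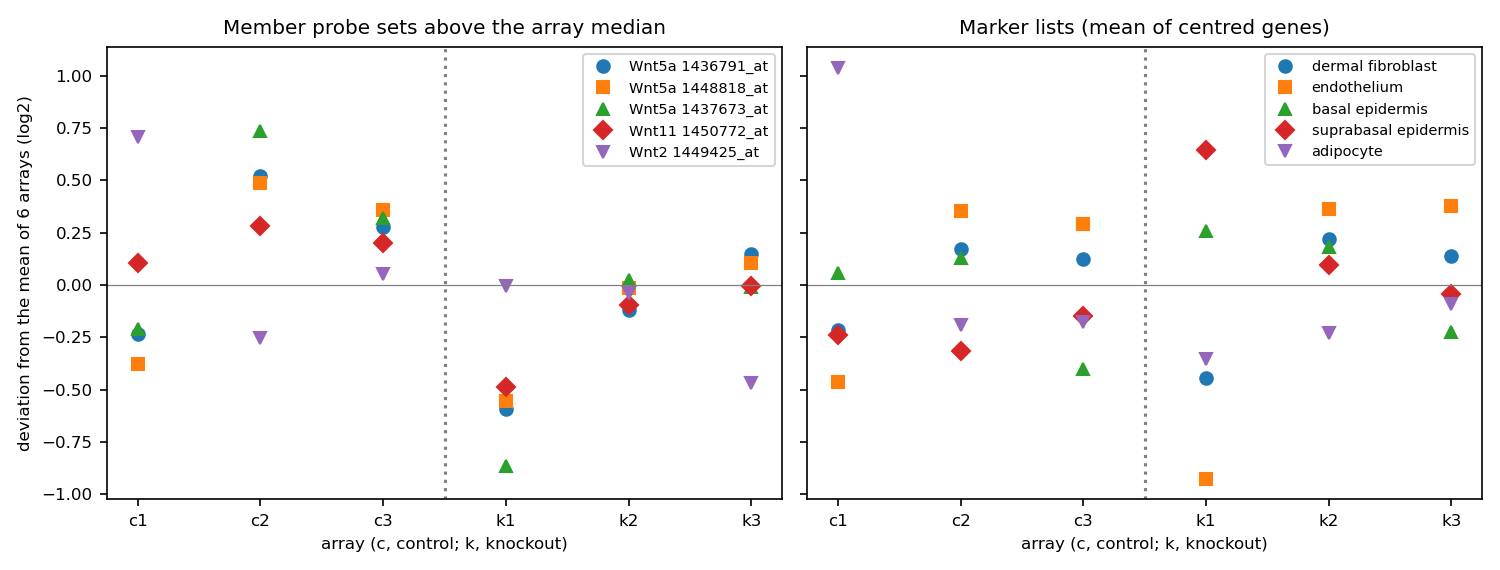
Deviation of each array from the mean of 6 arrays (log2) for the 5 member probe sets above the array median (left) and for the means of 5 marker lists (right); c is control and k is knockout. Wnt5a, fibroblast and endothelial values are low in control 1 and knockout 1, and Wnt2 and the adipocyte list are highest in control 1.

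The genes most like each bright member over the 6 arrays were sought among 11848 other genes above the median. For Wnt5a they were Ccdc3 (Pearson r = 0.995), Dcaf12l1 (0.995) and Dclk1 (0.994), and 532 genes reached an r above 0.9. For Wnt11 they were the matrix protease Adamts5 (0.996), the interferon receptor subunit Ifnar1 (0.995) and the noncoding RNA Snhg18 (0.991), with 260 genes above 0.9. For Wnt2 they were Sys1 (0.991), the RNA-editing enzyme Apobec1 (0.988) and Rtn4ip1 (0.983), with 90 above 0.9. With 6 arrays such values arise in many genes, and the order among them has no test.

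The rest of the pathway was read from lists by role, with the brightest probe set per gene, and 0 members of any list passed the adjusted threshold in limma. Over all 18193 genes 5.07% had an unadjusted p under 0.05 and the median difference was 0.0070. Of the 7 members, 6 had lower and 1 higher knockout values (median −0.086). The 12 other Wnt ligands split 9 higher and 3 lower (median 0.064, from 0.011 without knockout 2 to 0.11 without knockout 3), with Wnt16, at 6.75 ± 0.023 and 7.01 ± 0.11, differing by 0.25 (0.054 to 0.45, limma adjusted p = 0.909) and Wnt8b by 0.18 (−0.034 to 0.39). Whether the members differ from the other ligands was not tested.

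All 7 measured genes of Wnt lipid attachment, secretion and surface handling had lower knockout values (median −0.15, but −0.011 without knockout 1 and −0.036 without control 2), and 1 of them had an unadjusted p under 0.05. This was Gpc3, a glypican that binds Wnt ligands at the cell surface, at 10.5 ± 0.19 in control and 10.1 ± 0.11 in knockout (−0.36, −0.64 to −0.090, limma adjusted p = 0.909). Gpc6, a related glypican, differed by −0.32 (−0.80 to 0.16) and by −0.28 to −0.026 in its dimmer sets. Porcn and Wls, which attach the lipid and carry Wnt ligands out of the cell, belong to the same list, and Wls differed by −0.21 (limma adjusted p = 0.929).

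Of the 15 measured receptors and co-receptors of Wnt5a and Wnt11, 12 were lower and 3 higher (median −0.19), with 1 in each direction at an unadjusted p under 0.05. These were the co-receptor Ryk (−0.28), whose next brightest set gave 0.0092, and Fzd5 (0.21, dimmer set 0.057). Fzd5 averaged 5.75, below the array median, where low signal limits what a difference says. The median of the list turned to 0.034 without knockout 1, and it was −0.019 without control 2, −0.10 without control 3 and −0.070 with the mean of all probe sets of a gene. The 26 transducers of the polarity and calcium branches split 18 lower and 8 higher (median −0.089, but −0.023 without knockout 1 and −0.039 without control 2), and 0 had an unadjusted p under 0.05 in their brightest set. Among them the kinase gene Mapk9 (JNK2) differed by −0.18 (−0.39 to 0.023), with −0.31 (−0.53 to −0.094) and −0.075 in its dimmer sets, and the polarity gene Prickle1 by −0.33 (−0.79 to 0.13), with 0.035 and 0.034 in its dimmer sets.

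The 11 secreted inhibitors had a median of −0.011, which ran from −0.23 without knockout 2 to 0.033 without knockout 1. Dkk2, at 8.06 ± 0.090 and 7.75 ± 0.18, differed by −0.30 (−0.56 to −0.046, limma adjusted p = 0.909), and Sfrp1, which binds Wnt ligands directly, by −0.32 (−0.66 to 0.015), with −0.53 to −0.085 in its dimmer sets. Of the 9 measured beta-catenin feedback targets 6 were lower and 3 higher (median −0.083, but 0.080 without knockout 1, −0.24 without control 1 and −0.028 without control 2), with 0 at an unadjusted p under 0.05 in limma. Lgr5 differed by −0.18 and Sp5 by −0.18, both with intervals that include 0. The list means were lowest in knockout 1 for the receptors (−0.37), the secretion genes (−0.28), the inhibitors (−0.31) and the feedback targets (−0.38), the array that was also lowest in fibroblast and endothelial genes. The part of tissue makeup in these medians was not tested.

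**Figure D4:**
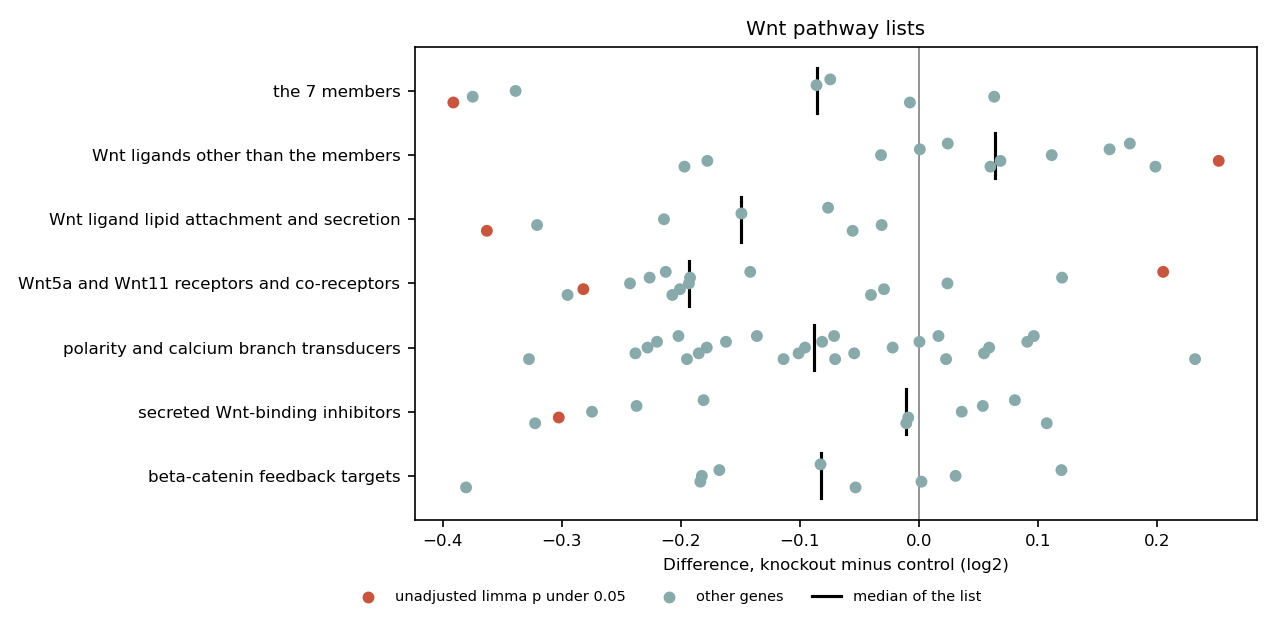
Difference between knockout and control (log2, brightest probe set per gene) for the 7 members and 6 lists of the Wnt pathway; each point is a gene, the bar is the median of the list and dark red marks an unadjusted limma p under 0.05. Medians run from −0.19 for receptors and co-receptors to 0.064 for the other Wnt ligands over all 6 arrays; without knockout 1 the receptor median is 0.034, and no gene passed the adjusted threshold.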

How the data were processed

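Total RNA of back skin was biotin labelled and hybridised to Affymetrix arrays, 1 array per sample, per the labels' protocols. The deposited log2 values were made by the authors with RMA (background correction, quantile normalisation, summary over probes), per the submitters' processing notes. Its version and the log base are not given in the sources used here, and the range of the values was taken as that of log2. Because RMA equalises the arrays, a change shared by most transcripts would be hidden, and differences of dim probe sets are shrunk. The number of arrays, 3 per group, limits the precision.

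The table held 45101 rows. The 64 control probe sets were left out, and 45037 were tested with no filter on low values. Names came from the platform annotation, with symbols updated through Entrez identifiers to the GRCm38.p6 gene table (34945 probe sets with 1 symbol, 932 with several, 9160 with none). Only probe sets with 1 symbol were named. A value per gene is that of the probe set with the highest mean.

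The contrast was run in R 4.3.3 through limma 3.58.1 without covariates (moderated two-sided test, 4 residual and 3.43 prior degrees of freedom), Benjamini-Hochberg adjusted over all 45037 probe sets. The fit was tested on simulated data. Correlations of members with marker lists were tested by exact permutation. Figures were drawn with matplotlib 3.10.9. The members, gene lists and tests were chosen with earlier results of these data known. The genes named are all member probe sets, Fzd6, the 3 genes most like each member above the array median, the 2 genes of each pathway list with the smallest p, up to 3 leading markers of a list, and Wnt3 and Wnt3a as neighbours. Porcn, Wls, Cebpa, Lpl and further leukocyte genes were named outside that rule.

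Arrays that share replicate number 1, 2 or 3 had correlated deviations from their group mean (0.568, 0.359 and 0.124). All exceed 0.1, the criterion used for pairing, although control 2 and knockout 3 correlated at 0.422 and the labels do not explain the numbers. The reported values are from the fit without the block. Values from the blocked fit are given above for Wnt5a and the counts of probe sets. In that fit Wnt11 differed by −0.39 (−0.61 to −0.17, limma adjusted p = 0.335). Wnt2 differed by −0.34 (−0.73 to 0.053, limma adjusted p = 0.462).

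Alternatives were a variance trend, a filter at the median level, a further quantile normalisation, centred arrays, array weights, the replicate block, a Y-linked or dermal fibroblast covariate, leaving out each array or both replicate 1 arrays, a stricter p, and other values per gene.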

Additional observations from a re-analysis of the deposited data

How the results depend on the processing

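No member probe set passed an adjusted limma p of 0.05 in any of the 15 alternatives (smallest 0.29, for Wnt11 and Wnt5a with the dermal fibroblast covariate). Over the whole array 3 probe sets passed with the replicate block and 0 in every other setting. The 1 member set of 13 at an unadjusted p under 0.05 became 4 with the replicate block, where 12% of all probe sets reached that level. It became 2 with the Y-linked covariate (4.96% of all) and 3 with the fibroblast covariate (10.6%). It became 4 without replicate 1 of both groups (7.63%) and 0 at an unadjusted p under 0.01. Leaving out each array gave 0 (without control 2, 2.97% of all, or control 3, 4.88%) to 4 (without control 1, 5.32%). The 1 set without overlap between groups became 9 without replicate 1 of both groups and between 1 and 7 without single arrays (7 without control 1). Fewer arrays separate more easily by construction, as the shares over all probe sets show (18.3% to 25.2% without 1 array, 39.1% without both). The cause of the other changes was not tested. Of 187 recomputed member differences 15 changed sign, all in Wnt5b, Wnt9a or Wnt9b, and in none was the unadjusted p under 0.05 in either setting. Of 6 pathway list medians, those of the receptors (0.034), feedback targets (0.080) and inhibitors (0.033) turned positive without knockout 1, and that of the inhibitors also without control 3 (0.024). The 0 relations to marker lists past the adjusted threshold stayed 0 for deviations from the group means. That second 0 says little, since permutation within groups of 3 arrays gives no exact p under 0.0278. A few relations at that floor could not pass an adjustment over 27. Scanner files were not used here, so no detection calls were made.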
